A study of Bombyx mori with 4 samples.

Results

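The midgut of the silkworm (Bombyx mori) was sequenced after high temperature and without it in 932, a variety described by its submitters as heat-tolerant. The response of 932 was read as the ratio of its heated to its unheated library, over every gene model with at least 1 RPM, reads per 1000000 reads of the library, in either of them. Of the 5558 gene models in the table, 2708 met that floor and are described here. Midguts came from larvae on day 2 of the 5th instar, the last larval stage, and the groups were 932 heat, 932 control, HY heat and HY control, where HY is the variety called heat-sensitive. The HY pair is set beside the 932 values only to show where they differ. Each group held 1 library, so no difference has a replicate check and no p-value is given. No temperature, length of exposure or number of larvae per library is given in the sources used here.

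Cells that meet high temperature switch on heat shock factor, which drives genes for chaperones. Small heat shock proteins hold unfolding proteins, HSP70 and its J-domain partners refold them, HSP90 and its co-chaperones finish the folding of many signalling proteins, and chaperonins enclose proteins while they fold. The lepidopteran midgut is the organ of digestion. Its goblet cells carry a V-ATPase, a proton pump that uses ATP from mitochondria to energise nutrient uptake and the alkaline gut lumen. Its columnar cells secrete lipases and proteases and form the peritrophic matrix, a chitin and mucin lining between food and epithelium.

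A value in RPM carries no correction for gene length, so it compares a gene between libraries and not genes with each other. Ratios are log2 of the value plus 1 in 932 heat over 932 control unless HY is named, and the added 1 understates changes of low genes. The values were whole numbers of reads at totals of 5828615 reads in 932 heat and 6139297 in 932 control, where 1 read was worth 0.172 and 0.163 RPM. Square brackets hold the exact 95% interval of the log2 ratio of the 2 read numbers themselves, which speaks to counting error alone. The listed gene models took 15.2% of reads in 932 heat and 18.6% in 932 control, and in the HY pair 15% and 11.6%. Differences therefore also hold a shift in how much of each library the listed models took. In whole midgut, fewer cells of a type and less RNA per cell cannot be told apart.

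A total of 300 genes (11.1%) were at least 2-fold higher after heat and 267 (9.86%) at least 2-fold lower. The median log2 ratio was 0.02, with quartiles of -0.50 and 0.56, so the middle of the distribution stayed near 0. For 107 genes (3.95%) the whole counting interval lay above 2-fold higher, and for 95 genes (3.51%) it lay beyond 2-fold lower. Genes with a mean between 100 and 300 RPM leaned to lower values, with 3 of 83 at least 2-fold higher and 20 lower, a median of -0.31. Among the 1077 genes with a mean under 3 RPM, 121 were higher and 102 lower. The floor fell between a gene whose higher library read 1.03 RPM and models that read at most 0.98.

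**Figure D1:**
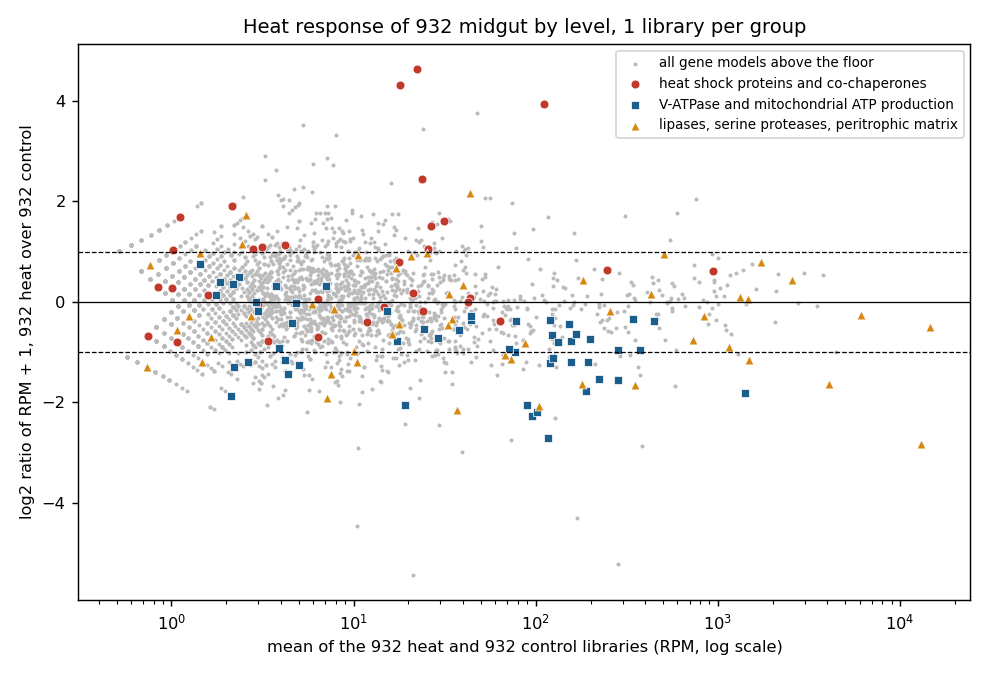
Log2 ratio of RPM + 1 (932 heat over 932 control, vertical axis) against the mean of both libraries in RPM (horizontal axis, log scale) for the 2708 gene models above the floor, each a point, with 3 groups of listed genes in colour and dashed lines at 2-fold. The highest points are chaperones, with Hsp19.9 at 4.63, while many proton pump and mitochondrial genes lie below the lower dashed line at means of about 100 RPM and more.

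Heat shock protein genes held the top of the ranking in 932. The small heat shock protein gene Hsp19.9 (BGIBMGA004540) had 43.9 RPM in 932 heat against 0.81 in 932 control. These values stood for 256 and 5 reads, a log2 ratio of 4.63 [4.51 to 7.39]. Hsp90 (BGIBMGA004612), the 90-kDa chaperone, had 35.2 RPM against 0.81, or 205 reads in 932 heat and 5 in 932 control [4.19 to 7.07]. Hsp23.7 (BGIBMGA004515), another small heat shock protein, had 210.3 RPM in 932 heat and 12.9 in 932 control, a ratio of 3.93 [3.70 to 4.38]. These were ranks 1, 2 and 3 of 1801 genes with at least 3 RPM in a library. In HY the same genes were also higher after heat, at 2.83 against 0 RPM, 16.3 against 3.97 RPM and 12.7 against 2.41 RPM. The HY log2 ratios were 1.94, 1.80 and 2.00.

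Small heat shock proteins numbered 5 above the floor. In 932 heat 4 of them were at least 2-fold higher and 0 lower, and their median ratio was 1.69 against 0.02 over all 2708 genes. The gene at that median, BGIBMGA005781, had 13 reads in 932 heat and was listed at 0 in 932 control, at least 4.56-fold higher with 3 reads as the floor of the control library. With that gene at its bound the median was 2.19. Over the 4 genes with at least 10 RPM in a library the median was 2.78, and from read numbers with 0.5 read added in place of 1 RPM it was 4.02. A further small heat shock protein (BGIBMGA005755) had 47.7 RPM in 932 heat and 14.8 in 932 control [1.34 to 2.04]. Hsp21.4 (BGIBMGA000944) was the member that went the other way, with 55.4 RPM against 72.3, a ratio of -0.38. The class was thus uneven, with ratios between -0.38 and 4.63. The median of the list in HY was 0.47.

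The larger chaperones had smaller ratios, apart from Hsp90. HSP70-3 (BGIBMGA007950) had 39.8 RPM in 932 heat and 13.2 in 932 control, a log2 ratio of 1.52 [1.22 to 1.98]. In HY it had 10.3 RPM after heat and 12.2 in control. The cognate Hsc70-4 (BGIBMGA002381), made by unstressed cells, had 1144 RPM against 745.5, a ratio of 0.62 [0.56 to 0.67]. The ratio of Hsc70-4 in HY was 0.67, so this abundant gene differed by a like amount in both varieties. In 932, HSP70-14 (BGIBMGA006574) read 6.52 RPM after heat and 6.19 in control, and the cognate model BGIBMGA007949 2.92 and 3.09. Of the 4 HSP70 genes 1 was at least 2-fold higher, against 11.1% of all genes, and the median was 0.34. The HY pair had 2 of 5 at least 2-fold higher, against 14.1%, and a median of 0.67. There HSP70-14 read 15.3 RPM after heat and 5.52 in control. HSP90 beta (BGIBMGA012753) stood at 298 RPM in 932 heat and 192.9 in 932 control, with a ratio of 0.63. The mitochondrial HSP90 relative TRAP1 (BGIBMGA001241) was at 22.6 and 19.9 RPM, within counting error [-0.18 to 0.56].

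Partners of HSP70 and HSP90 were among the higher genes. In the co-chaperone list 5 of 15 genes were at least 2-fold higher and 0 lower, and the list median was 0.14. The hsp70 binding protein BGIBMGA013070 had 40.7 RPM in 932 heat and 6.68 in 932 control, a ratio of 2.44 [2.12 to 3.12]. Samui (BGIBMGA006976), a BAG-domain protein of the silkworm, had 23 reads against 2 [1.58 to 6.73]. The J-domain genes DnaJ-26 (BGIBMGA006645), with 34.8 against 16.3 RPM, and DnaJ-4 (BGIBMGA006824), with 4.12 against 1.47 RPM, both had ratios of 1.05. Other J-domain genes had lower values after heat without reaching 2-fold, such as DnaJ-1 (BGIBMGA006196) at 4.63 RPM in 932 heat and 8.14 in 932 control. Cdc37 (BGIBMGA010245), which brings kinases to HSP90, read 22.8 and 12.7 RPM, a ratio of 0.80. A p23-like gene (BGIBMGA006376), named after its values were seen, read 43.4 RPM in 932 heat and 14 in 932 control [1.27 to 2.00]; p23 proteins bind HSP90. The nudC gene had a pair of models, also chosen afterwards, BGIBMGA000381 at 13 and 2.77 RPM and BGIBMGA000382 at 55.8 and 26.4 RPM.

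**Figure D2:**
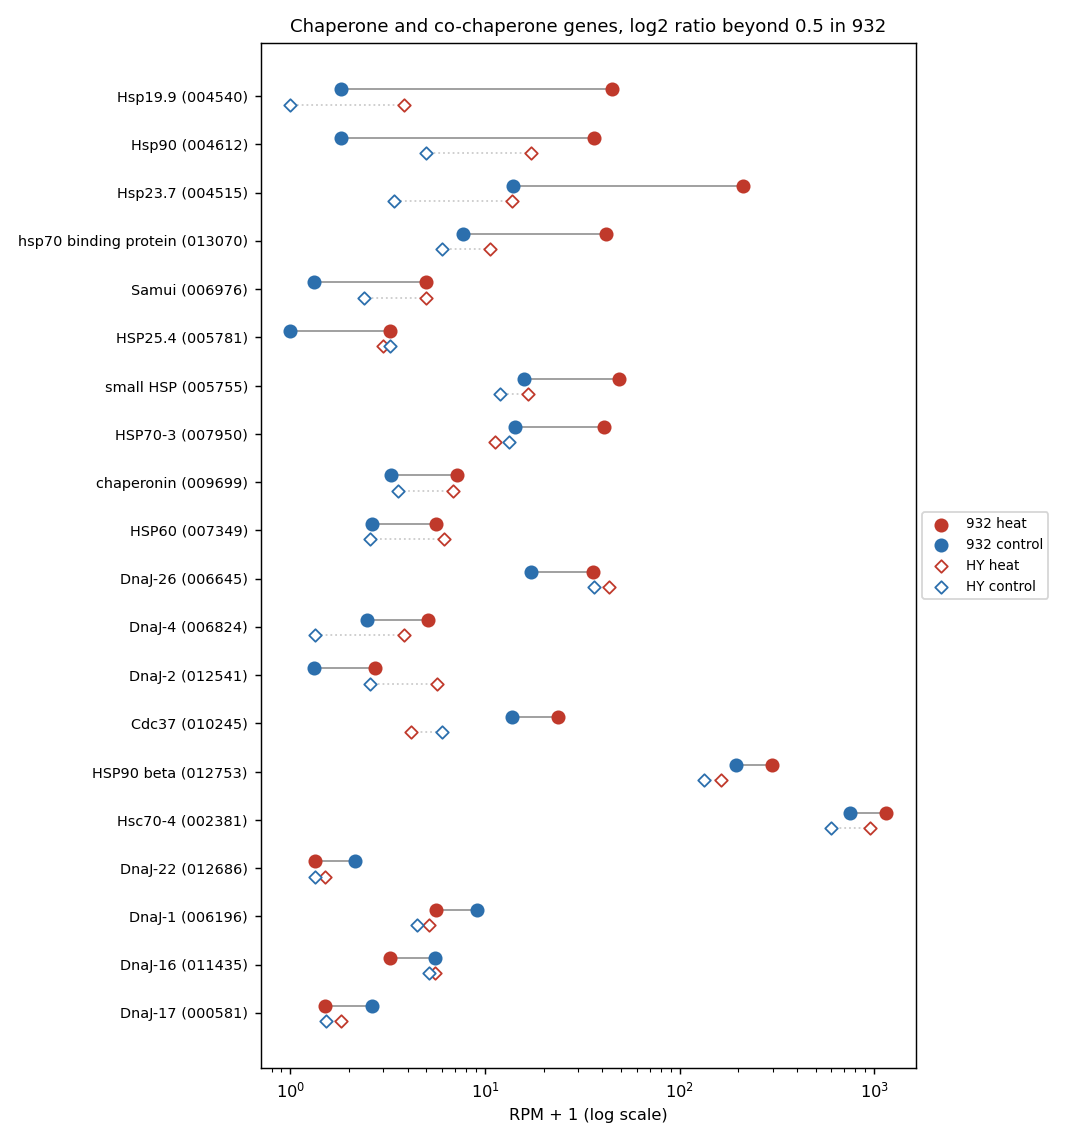
Levels of the chaperone and co-chaperone genes with a 932 log2 ratio beyond 0.5 in either direction, as RPM + 1 on a log axis, with filled circles for 932 and open diamonds for HY, red for heat and blue for control; each symbol is 1 library and the digits are the end of the gene model's name. The gap between the 932 circles is widest for Hsp19.9 (43.9 against 0.81 RPM), and 4 DnaJ genes at the bottom lie to the left after heat.

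Chaperonins and isomerases followed on a smaller scale. HSP60 (BGIBMGA007349), the mitochondrial chaperonin, had 4.63 RPM in 932 heat and 1.63 in 932 control, a ratio of 1.10 [0.42 to 2.72]. The chaperonin gene BGIBMGA009699 had 6.18 RPM against 2.28, and another (BGIBMGA012182) had 42.5 against 43. The subunit zeta of the cytosolic chaperonin (BGIBMGA013116) had 44.8 RPM against 42.4, within counting error [-0.17 to 0.33]. The list median of 8 peptidyl-prolyl isomerases, which turn proline bonds during folding, was 0.48. Against 11.1% of all genes, 2 of these 8 were at least 2-fold higher. These were the cyclophilin-like BGIBMGA002429, at 20.4 RPM in 932 heat and 7 in 932 control, and the secretory pathway's Ppib (BGIBMGA004059), at 18.7 and 8.63 RPM.

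Folding genes of the endoplasmic reticulum numbered 3 above the floor, too few to describe the class, and 0 of them passed 2-fold. Calreticulin (BGIBMGA000475), a lectin chaperone, had 19.4 RPM in 932 heat and 15.2 in 932 control [-0.05 to 0.77], and Pdi (BGIBMGA011844), which forms disulfide bonds, had 8.06 and 9.28 RPM. In HY, calreticulin read 2.33 RPM after heat and 10.2 in control, a log2 ratio of -1.75. The difference between the varieties was not tested. Outside the list, MANF (BGIBMGA005559), a secreted protein of the endoplasmic reticulum stress response, read 3.95 RPM in 932 heat and 1.14 in 932 control [0.52 to 3.26]; it was named after its values were seen.

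Trafficking and proteasome genes leaned to lower values in 932. Of 22 COPI, COPII and Golgi genes, which move cargo between the endoplasmic reticulum and the Golgi, 18 had ratios below 0, and the list median was -0.53. At least 2-fold lower were 2 of the 22, a share near the 9.86% of all genes, and 0 were higher. Syntaxin 5A (BGIBMGA010620), a fusion protein of Golgi membranes, had 8.75 RPM in 932 heat and 19.6 in 932 control, a ratio of -1.08. Of 17 proteasome genes 16 were below 0, and the list median was -0.51. Of these 2 were at least 2-fold lower, and in both lists 0 genes had the whole counting interval beyond 2-fold. The subunit beta 7 (BGIBMGA003009) had 8.92 RPM against 19.9, and the regulatory ATPase subunit 4 (BGIBMGA004908) 18.7 against 39.6. The ubiquitin list, of genes that mark proteins for the proteasome, had 1 of 28 higher and 2 lower. Both counts were below the shares of 11.1% and 9.86% over all genes. A ubiquitin specific protease (BGIBMGA007676) was its higher member, with 15.6 RPM in 932 heat and 3.91 in 932 control, and Cullin-3 (BGIBMGA013548), a ligase scaffold, was a lower one, at 3.95 and 11.1 RPM. The small heat shock protein and proteasome lists thus had medians on opposite sides of 0.

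Genes of ribosome assembly and RNA processing leaned to higher values. Of 11 nucleolar genes 9 had ratios above 0 and 3 were at least 2-fold higher, with 1 lower and a median of 0.83. The nucleolar GTPase NOG1 (BGIBMGA003221), which acts in maturation of the large ribosomal subunit in yeast, had 141.7 RPM in 932 heat and 51 in 932 control, a ratio of 1.46 [1.29 to 1.67]. In HY it had 264.2 RPM after heat and 110 in control, a ratio of 1.26. U3 nucleolar proteins, which act in the cleavage of ribosomal RNA, were higher in 2 gene models, BGIBMGA010745 at 8.06 against 1.95 RPM and BGIBMGA007962 at 8.58 against 3.58 RPM. Of 19 splicing genes 4 were higher and 1 lower, and the list median was 0.34. A core snRNP protein (BGIBMGA008493) had 117.9 RPM in 932 heat and 29.5 in 932 control [1.76 to 2.24], and 130 against 41.6 RPM in the HY pair. Of 18 RNA helicases 4 were higher and 2 lower, against 11.1% and 9.86% of all genes. The highest was the DEAD box polypeptide 5 gene (BGIBMGA011746) at 20.2 RPM in 932 heat and 5.38 in 932 control. Of 11 other RNA-binding protein genes 1 was higher and 1 lower, near those shares. Their median was 0.25, and -0.15 over the 3 genes with at least 10 RPM in a library. Over 19 models they summed to 49.2 RPM in 932 heat and 52.6 in 932 control.

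Cytosolic ribosomal protein genes, the main load of the translation machinery, had a median near that of all genes. Of 69 genes 5 were at least 2-fold higher and 0 lower, and the list median was 0.11. Both counts were below the shares of 11.1% and 9.86% over all genes. Their summed level was 41201 RPM in 932 heat and 35191 in 932 control, or 27.1% and 18.9% of all that the listed models took. RpL22 (BGIBMGA006986) stood out, with 924.9 RPM in 932 heat and 271.7 in 932 control [1.69 to 1.85], and had 1092 against 583.7 RPM in the HY pair. RpSA (BGIBMGA007311), RpS15 (BGIBMGA001471) and RpP1 (BGIBMGA003412) had ratios of 1.64, 1.20 and 1.10. The abundant RpL10 (BGIBMGA002811) stood at 2720 RPM and 2761 RPM, within counting error [-0.05 to 0.01]. Near-identical copies of such genes could share reads, so single members are uncertain. Among 27 initiation factors 3 were higher, the share over all genes, and 1 was lower, below that share. Of them eIF3-S9 (BGIBMGA007114), a subunit of the factor that loads ribosomes on mRNA, read 110.2 and 41.7 RPM. Of 9 elongation factors and 16 aminoacyl-tRNA synthetases 0 passed 2-fold.

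Of 49 genes matched by names of transcription factors 8 were at least 2-fold higher and 3 lower, against 11.1% and 9.86% of all genes. The list median was 0.43. The match took in zinc finger genes by name and the ecdysis triggering hormone receptor Ethr, so not every member need be a transcription factor. For 1 of the 49 the whole counting interval lay above 2-fold, and 6 were listed at 0 in 1 of the libraries. Mod(mdg4) (BGIBMGA006426), a chromatin boundary gene in Drosophila, outside the list and named after its values were seen, read 50.8 RPM in 932 heat and 15.5 in 932 control [1.38 to 2.06]. Forkhead box K1 (BGIBMGA014424) read 14.6 and 6.68 RPM. A histone H3 methyltransferase (BGIBMGA002656) was the only chromatin gene of 10 past 2-fold, with 14.2 RPM in 932 heat and 1.30 in 932 control, a ratio of 2.73 [2.40 to 4.71]. In HY it read 6.33 RPM after heat and 1.90 in control.

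V-ATPase genes were lower after heat in 932. Above the floor stood 12 of them, and 9 were at least 2-fold lower and 0 higher, and their median was -1.34 against 0.02 over all genes. Subunit G (BGIBMGA013678) had 621.8 RPM in 932 heat and 2196 in 932 control, a ratio of -1.82 [-1.87 to -1.77]. Subunit E (BGIBMGA010247) had 36 RPM against 167.9 [-2.44 to -2.01], and accessory subunit S1 (BGIBMGA014403) 32.4 against 159 [-2.53 to -2.07]. The catalytic subunit A (BGIBMGA008295), which splits ATP, had 6.86 RPM in 932 heat and 31.6 in 932 control, and subunit B (BGIBMGA002241) 1.89 and 6.84. These genes come from both the ATP-splitting head and the membrane part of the pump, since the 21 kDa proteolipid (BGIBMGA000231) read 2.23 and 6.19 RPM. The 16 kDa proteolipid VATPc (BGIBMGA001302) read 14.2 and 16.3 RPM, a ratio of -0.18. Subunit F (BGIBMGA008011) read 7.89 and 6.19 RPM and was the only member above 0. Another subunit E model (BGIBMGA010246) read 1.20 and 4.07 RPM and could share reads with the other. In HY the median of the list was -0.33, and subunit G read 498.4 RPM after heat and 742.4 in control. For subunit G the 932 control library was the highest of the 4, and the other libraries lay between 498.4 and 742.4 RPM.

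Mitochondrial genes that make ATP leaned to lower values as well. Of 10 ATP synthase genes 5 were at least 2-fold lower and 0 higher, against 9.86% and 11.1% of all genes. The list median was -1.07. The gamma subunit (BGIBMGA013965), its rotating shaft, had 34.1 RPM in 932 heat and 145.1 in 932 control, a ratio of -2.06 [-2.32 to -1.86]. The O subunit (BGIBMGA011504) had 143.4 RPM against 423.8. The beta subunit gave a pair of models that differed, isoform 2 (BGIBMGA012555) with 114.4 RPM against 331.3 and isoform 1 (BGIBMGA012549) with 4.29 against 3.26. All 11 genes of complexes II to IV and cytochrome c lay below 0, with 4 at least 2-fold lower and a median of -0.79. Cytochrome c (BGIBMGA009012), the soluble electron carrier, had 30.5 RPM in 932 heat and 204.3 in 932 control, a ratio of -2.70 [-2.98 to -2.51]. Cytochrome c oxidase subunit IV (BGIBMGA013680) had 84.8 RPM against 291.9. In complex I, 1 of 19 genes was at least 2-fold lower, below the 9.86% of all genes. Its median was -0.38, and 14 of the 19 ratios were below 0. The list of carriers and import proteins held 6 genes, of which 1, the anion channel VDAC of the outer membrane (BGIBMGA008955), was lower, at 198.8 RPM in 932 heat and 547.3 in 932 control.

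**Figure D3:**
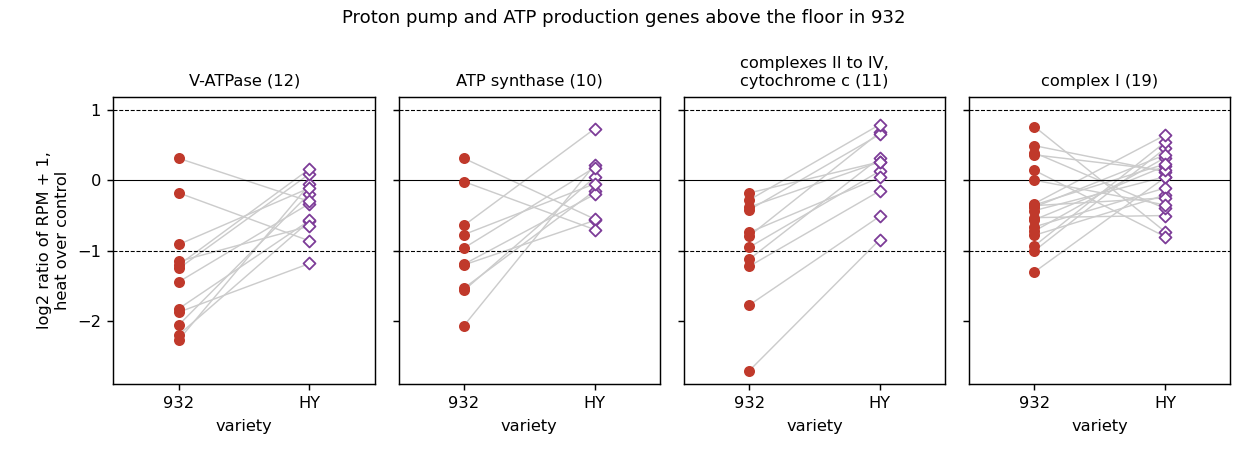
Log2 ratio of RPM + 1, heat over control, for each proton pump and ATP production gene above the floor in 932; circles are 932, diamonds are HY, a line joins the values of the same gene, and dashed lines mark 2-fold. In 932, 9 of 12 V-ATPase points and 5 of 10 ATP synthase points lie below -1, against 1 of these V-ATPase genes and 0 of these ATP synthase genes in HY; each ratio rests on 1 library per group.

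In HY the ATP synthase gamma subunit read 13.7 RPM after heat and 11.6 in control, and the O subunit 217.5 and 211.9 RPM. Cytochrome c in HY read 39.5 and 71.4 RPM, a log2 ratio of -0.84. For gamma, both HY libraries lay below both 932 libraries. For cytochrome c, 932 heat was the lowest of the 4 libraries and 932 control the highest. The difference of the heat responses between varieties was not tested, since each group held 1 library.

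Genes of central metabolism upstream of the respiratory chain leaned to lower values. Of 13 citrate cycle genes 5 were at least 2-fold lower and 0 higher, and the list median was -0.80. Citrate synthase (BGIBMGA000672), the entry step of the cycle, read 4.46 RPM in 932 heat and 11.7 in 932 control, and isocitrate dehydrogenase (BGIBMGA007160) 5.15 and 13.5. Another isocitrate dehydrogenase model (BGIBMGA006907) read 4.63 and 3.91 RPM. The shared dehydrogenase subunit DLDH (BGIBMGA000292), outside the list and named after its values were seen, had 47.9 RPM against 122.7 [-1.56 to -1.16]. Of 11 glycolysis genes 4 were lower and 1 higher, and the list median was -0.66. Tpi (BGIBMGA000559), triosephosphate isomerase, had 4.46 RPM in 932 heat and 17.9 in 932 control [-2.68 to -1.38]. Pglym (BGIBMGA013244), phosphoglyceromutase, had 42.9 RPM against 89.6. The higher member was Ldh (BGIBMGA012336), lactate dehydrogenase, which interconverts pyruvate and lactate, with 15.8 RPM in 932 heat and 3.75 in 932 control [1.40 to 2.80]. In HY, Ldh read 4.16 RPM after heat and 9.66 in control, the opposite direction.

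Enzymes that feed sugar and amino acids into these pathways were mixed. A trehalase (BGIBMGA005664), which splits the blood sugar of insects, had 178.6 RPM in 932 heat and 54.4 in 932 control, a ratio of 1.70 [1.54 to 1.90]. In HY it had 203 RPM after heat and 148.6 in control, so 932 control was the lowest of the 4 libraries. Hibadh (BGIBMGA007144), a dehydrogenase of valine breakdown named after its values were seen, had 772.9 RPM against 326.3 [1.17 to 1.32]. Its HY pair read 363.3 and 182.1 RPM. Aspartate aminotransferase (BGIBMGA003116) had 74.5 RPM in 932 heat and 183.4 in 932 control. Of 15 amino acid genes 2 were lower and 0 higher, against 9.86% and 11.1% of all genes.

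Among the 15 most abundant genes 3 were at least 2-fold lower after heat and 0 higher. Much of the difference in the total came from a single digestive gene. A triacylglycerol lipase (BGIBMGA010400), which splits dietary fat, had 3229 RPM in 932 heat and 22885 in 932 control, a ratio of -2.82 [-2.85 to -2.80]. This lipase took 2.13% of the listed models' reads in 932 heat and 12.3% in 932 control. The sum over all models was 151859 RPM in 932 heat and 186231 in 932 control, and the gene made up 57.2% of the difference. Without it the log2 ratio of the sums was -0.14, against -0.29 with it. The abundant lipase-1 (BGIBMGA002670) had 12105 RPM against 17097, a ratio of -0.50. The list as a whole did not follow, since 1 of 13 lipase genes was higher, 1 lower and the median was 0.16. An acidic lipase (BGIBMGA011777) had 71.9 RPM in 932 heat and 15.3 in 932 control [1.91 to 2.57], while another (BGIBMGA010640) had 1501 RPM against 1444. The insect intestinal lipase 6 (BGIBMGA002669) had 2200 RPM in 932 heat and 1263 in 932 control. In HY the triacylglycerol lipase read 2713 RPM after heat and 470.4 in control. The libraries of HY thus both lay below 932 heat for this gene.

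Digestive proteases leaned to lower values. Of 25 trypsin- and chymotrypsin-like genes 8 were at least 2-fold lower and 1 higher, and the list median was -0.55. A trypsin (BGIBMGA001320) had 168 RPM in 932 heat and 534.3 in 932 control [-1.77 to -1.57], and alkaline trypsin A (BGIBMGA003568) had 926 RPM against 2052. In HY they differed in direction, with 20.1 against 130.2 RPM for the trypsin and 603.1 against 264 RPM for trypsin A. The most abundant of the list, serine protease 36 (BGIBMGA008514), had 5575 RPM in 932 heat and 6641 in 932 control, a ratio of -0.25. Of 32 peptidases, which trim peptides from their ends, 6 were lower and 2 higher, against 9.86% and 11.1% of all genes. Aminopeptidase N Apn4 (BGIBMGA008060) had 928 RPM against 1440, and a carboxypeptidase A (BGIBMGA004797) 75 against 161.6. Carboxypeptidase B (BGIBMGA009487) was the highest of them, with 42 reads in 932 heat and 2 in 932 control [2.52 to 7.56]. Among 18 carbohydrate digestion genes the only one past 2-fold was Gal (BGIBMGA006815), a beta-galactosidase, with 8.06 RPM in 932 heat and 70.4 in 932 control.

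Peritrophic matrix genes leaned to lower values in 932. Of 12 genes 5 were at least 2-fold lower and 1 higher, and the list median was -0.71. Its abundant chitin binding protein (BGIBMGA001491) had 1982 RPM in 932 heat and 6170 in 932 control [-1.67 to -1.61]. The mucin IIM1 (BGIBMGA001480) had 39 RPM against 168.4, and peritrophin 1 (BGIBMGA001504) 12.9 against 60.9. The higher member, a chitin binding protein (BGIBMGA009067), had 26 reads in 932 heat and 4 in 932 control, and read 17 RPM after heat against 394.9 in control in HY. Chitin synthase B (BGIBMGA002960), the enzyme of midgut chitin, read 3.60 RPM in 932 heat and 11.4 in 932 control, while chitin synthase A (BGIBMGA002963), known for cuticle and tracheal chitin, read 1.20 and 0.33. Peritrophin type-A domain protein 4 (BGIBMGA011851) read 1372 and 1292 RPM. The unnamed BGIBMGA003322, the third lower gene among the most abundant, had 2970 RPM in 932 heat and 5948 in 932 control. The median of the list in HY was 1.26. There IIM1 had 26.5 RPM after heat and 3.10 in control, and peritrophin 1 had 3.66 and 0.34. For both genes the 2 HY libraries lay below 932 control.

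**Figure D4:**
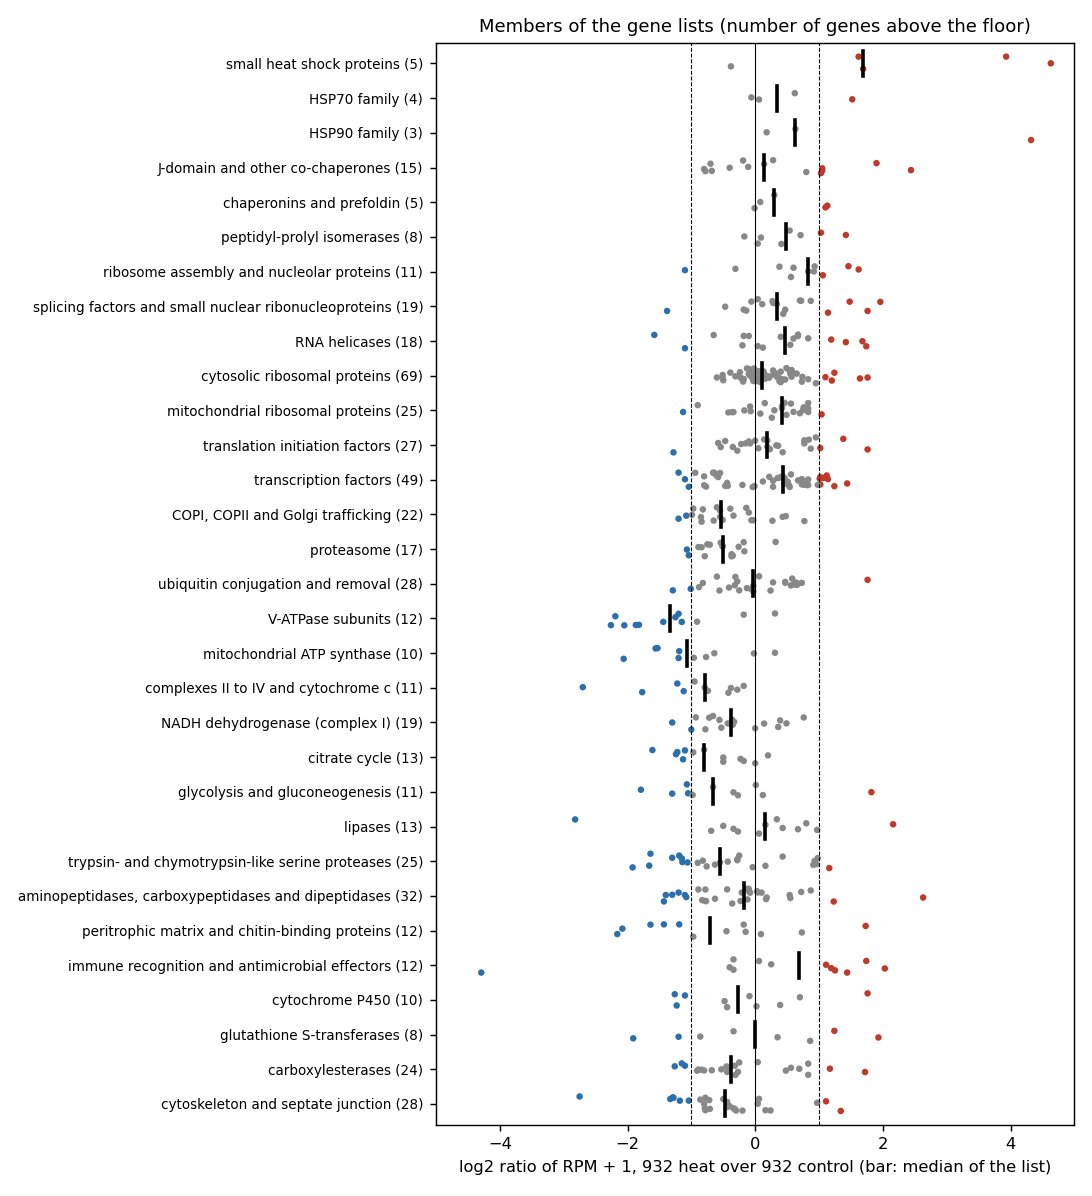
Log2 ratios of RPM + 1 (932 heat over 932 control) for the members of gene lists above the floor, with the number of genes in brackets, red points at least 2-fold higher, blue points at least 2-fold lower and a black bar at the median. Medians run between 1.69 for small heat shock proteins and -1.34 for V-ATPase subunits.

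Genes of unknown or diverse function filled much of both ends of the ranking. Among the 15 highest ratios 8 had a name, and among the 15 lowest 10 had one. After the heat shock proteins the highest was an unnamed model, BGIBMGA004115, with 89.7 RPM in 932 heat and 5.70 in 932 control, a ratio of 3.76 [3.48 to 4.51]. BGIBMGA009127, unnamed too, had 45.1 RPM against 3.26. Lp-c6 (BGIBMGA004394), a 30 kDa lipoprotein made mainly by fat body, had 61 reads in 932 heat and was listed at 0 in 932 control, at least 21.4-fold higher. In HY it was listed at 0 after heat and read 9.48 RPM in control. A myosin IA (BGIBMGA014236), a motor known from the microvilli of the vertebrate gut, had 27.4 RPM in 932 heat and 4.56 in 932 control. Over all genes above the floor 38% had no name, against 43.7% of the 300 higher and 34.5% of the 267 lower genes.

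At the low end, BGIBMGA007593 had 259 reads in 932 control and was listed at 0 in 932 heat, at least 82-fold lower. BGIBMGA010981 had 129 reads in 932 control and was also listed at 0 in 932 heat, at least 40.8-fold lower. BGIBMGA007733 had 13.9 RPM in 932 heat and 550.5 in 932 control, a ratio of -5.21 [-5.64 to -4.99]. These models have no name, and in HY BGIBMGA007733 read 36.1 RPM after heat and 0.69 in control. BGRP4 (BGIBMGA000353), a beta-1,3-glucan recognition protein of the family that detects fungal walls, had 15.4 RPM in 932 heat and 321.1 in 932 control [-4.70 to -4.07]. MG7 (BGIBMGA011598), named after a protein of another moth, had 91.3 RPM against 672.1. Transferrin (BGIBMGA012221), an iron carrier of the blood, had 10 reads in 932 heat and 119 in 932 control [-4.59 to -2.57]. The hatching enzyme-like gene Hel (BGIBMGA007915) had 42.2 RPM against 212.4, and futsch (BGIBMGA007208), a microtubule-associated protein, 18.2 against 128.3.

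Of these 15 lowest genes, 7 were at least 2-fold higher after heat in HY and 0 were at least 2-fold lower, where 14.1% of the 2810 HY genes above the floor were higher and 4.59% lower. Of the 15 highest genes, 5 were at least 2-fold higher in HY and 2 lower. For 5 of the 7 the HY control library was the lowest of the 4 and the 932 control library the highest. Among the 95 genes whose interval lay beyond 2-fold lower in 932, the median HY log2 ratio was 0.00, with 13 higher and 11 lower. Among the 107 genes on the higher side the median HY ratio was 0.62, with 25 higher and 10 lower. Below the floor in both HY libraries were 17 of the 95 and 14 of the 107. For those genes the added 1 keeps the HY ratio small.

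**Figure D5:**
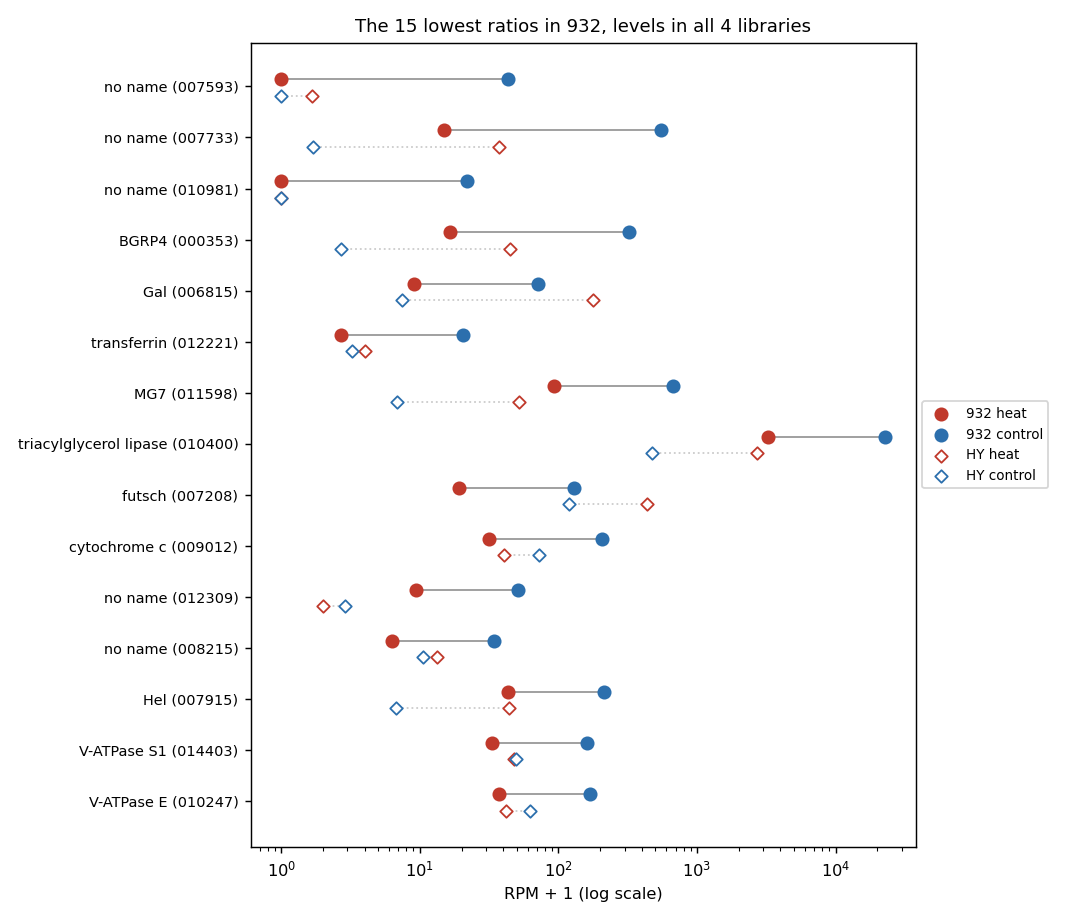
Levels of the 15 genes with the lowest 932 log2 ratios, as RPM + 1 on a log axis, with filled circles for 932 and open diamonds for HY, red for heat and blue for control; each symbol is 1 library. In all 15 the red 932 circle lies left of the blue one, and for BGRP4, Gal, MG7, the triacylglycerol lipase, futsch and Hel the HY diamonds lie in the opposite order.

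Of 12 immune recognition and effector genes 8 had ratios above 0 in 932 and 4 below. At least 2-fold higher were 6, against 11.1% of all genes, and BGRP4 was at least 2-fold lower. The list median was 0.68, and 0.06 over the 5 genes with at least 10 RPM in a library. The summed level was 145 RPM in 932 heat and 398 in 932 control, of which BGRP4 held 15.4 and 321.1 RPM. Lysozyme Lzm (BGIBMGA010439), which cuts bacterial walls, had 25.7 RPM in 932 heat and 7 in 932 control, a ratio of 1.74 [1.38 to 2.40]. PGRP-S1 (BGIBMGA008038), a peptidoglycan recognition protein, had 33.8 RPM against 15.2, and the gene PGRP-S5 (BGIBMGA012866) 7.72 against 1.14. In HY, PGRP-S1 read 32.1 RPM after heat and 70.5 in control, a ratio of -1.11. The HY levels of PGRP-S5 were 552.6 and 619.4 RPM, above both 932 libraries. The antimicrobial peptide moricin (BGIBMGA011495) had 10 reads in 932 heat and was listed at 0 in 932 control. Of 5 genes of the Toll, Imd and phenoloxidase cascades 0 passed 2-fold.

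Detoxification families held genes of both directions. Of 10 cytochromes P450, which oxidise foreign compounds, 1 was at least 2-fold higher and 3 lower. The shares over all genes were 11.1% and 9.86%. Among the lower ones Cyp4m5 (BGIBMGA003683) had 7 reads in 932 control and was listed at 0 in 932 heat. The higher one (BGIBMGA005266) had 46 RPM in 932 heat and 12.9 in 932 control [1.47 to 2.22]. Its hit, CYP333B11, is shared with BGIBMGA001276, at 65 and 69.4 RPM [-0.30 to 0.11], and with BGIBMGA001277, at 0.69 and 1.30 RPM. Cyp9a20 (BGIBMGA003945) had 32.9 RPM against 80.5, whereas Cyp9a22 (BGIBMGA003957) had 77 against 47.1. Omega glutathione S-transferases, which attach glutathione to toxins, split as well. GSTo1 (BGIBMGA011819) had 8.41 RPM in 932 heat and 1.47 in 932 control, and GSTo4 (BGIBMGA011820) had 9.09 against 36.8. The glycosyltransferase UGT33D7 (BGIBMGA013861) had 27.4 RPM against 7.49 and was listed at 0 in both HY libraries. Of 24 carboxylesterases 2 were higher and 3 lower, near the shares of 11.1% and 9.86% over all genes. Members of these families are similar in sequence, so reads could be split between them.

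Few redox and iron genes passed 2-fold. Of 12 antioxidant genes 1 was at least 2-fold higher, below the 11.1% of all genes, and 0 were lower. The higher one was the superoxide dismutase gene SOD (BGIBMGA001307), with 22 reads in 932 heat and 4 in 932 control [0.98 to 4.53]. The peroxiredoxin Jafrac1 (BGIBMGA002186) had 198.8 RPM against 297.3, a ratio of -0.58. A ferritin subunit (BGIBMGA008780), the iron store of the midgut, had 1090 RPM in 932 heat and 804.8 in 932 control, and its partner (BGIBMGA008768) had 342.3 and 306.2. A list of 10 genes matched by ion pump and channel names had a median of -0.65. The match also took in carbonic anhydrases and translocation proteins, so not every member moves ions. Ratios of its pumps and channels were mixed. A chloride intracellular channel stood at -1.74 and a cation-transporting ATPase at -0.89. Innexin 2 was at -0.06, an aquaporin at 0.26 and a potassium channel at 0.43. Of the 10 genes, 0 passed 2-fold upward and 2 passed it downward, against 11.1% and 9.86% of all genes. The lower ones were the chloride intracellular channel (BGIBMGA009045), with 5 reads in 932 heat and 32 in 932 control, and a carbonic anhydrase (BGIBMGA003357). Carbonic anhydrase, the enzyme that makes bicarbonate and protons, had 15 and 57 reads. An Na-K-Cl cotransporter (BGIBMGA003464), named after its values were seen, read 11.3 RPM in 932 heat and 2.61 in 932 control.

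Structural genes and markers of neighbouring tissues were checked, because a dissected midgut also holds muscle, trachea and nerve. Of 28 cytoskeleton genes 6 were at least 2-fold lower and 2 higher, and the list median was -0.47. Alpha-tubulin (BGIBMGA013413), a building block of microtubules, had 837.4 RPM in 932 heat and 1728 in 932 control, and 707.5 against 1515 RPM in the HY pair. The cadherin Btr175 (BGIBMGA013616), the midgut receptor of Bacillus thuringiensis toxins, read 2.57 and 7.98 RPM. Another cadherin-like membrane protein model (BGIBMGA013617) had 64.8 RPM in 932 heat and 82.3 in 932 control, a ratio of -0.34. Muscle genes summed to 1157 RPM in 932 heat and 1245 in 932 control over 27 models. Of 20 above the floor 11 had ratios above 0 and 9 below, with 3 at least 2-fold higher and 0 lower. The list median was 0.05. Tropomyosin-2 (BGIBMGA001584) read 130.1 and 81.8 RPM, while a muscle LIM protein (BGIBMGA001202) read 206.4 and 313.7 and muscle myosin heavy chain (BGIBMGA014227) 202.6 and 258.5. Hemocyte genes summed to 4.63 and 6.68 RPM over 9 models, with the hemocyte-specific integrin alpha listed at 0 in both. Fat body genes summed to 40.3 RPM in 932 heat and 27.5 in 932 control over 13 models, with arylphorin, a storage protein and vitellogenin listed at 0 in both. Sp2 (BGIBMGA009028), another storage protein, read 8.58 and 1.47 RPM. Gut peptides summed to 87 RPM in 932 heat and 66.8 in 932 control over 11 models, and silk gland genes to 0.69 and 0 RPM over 2. The part of these tissues in the other results was not tested.

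Cuticle protein genes, which line trachea and foregut, summed to 3811 RPM in 932 heat and 2713 in 932 control over 19 models. Nearly all of both sums came from the 3 models with at least 10 RPM in a library, the CPH43 and CPH45 models given here. A CPH43 model (BGIBMGA005302) had 1227 RPM against 296.9, a ratio of 2.04 [1.97 to 2.12], and another (BGIBMGA013778) had 1679 against 1085. CPH45 (BGIBMGA004124) read 896.3 RPM in 932 heat and 1322 in 932 control. In HY the higher CPH43 model read 681.7 RPM after heat and 742.9 in control, and CPH45 read 57.3 and 1902.

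Signalling and growth genes are given by count, against 11.1% of all genes higher and 9.86% lower. A list of 19 genes with kinase in their names also held anchor, receptor and binding proteins of kinases. Of the 19, 1 was at least 2-fold lower and 0 higher. The lower one was Jnk (BGIBMGA007358), a stress kinase, with 12 reads in 932 control and listed at 0 in 932 heat. Of 19 replication and cell cycle genes 2 were higher and 0 lower. The cohesin gene SMC1A (BGIBMGA009835), named after its values were seen, read 7.03 RPM in 932 heat and 1.14 in 932 control [1.45 to 4.03]. Of 18 hormone genes 2 were higher and 2 lower, close to the shares over all genes. The juvenile hormone diol kinase Jhdk had a pair of models. The one with nearly all its reads (BGIBMGA008814) stood at 833.3 RPM in 932 heat and 818.8 in 932 control [-0.03 to 0.08], and the other (BGIBMGA008813) had 17 reads in 932 heat and was listed at 0 in 932 control. Srp9 (BGIBMGA001186), a protein of the signal recognition particle, had 236.2 RPM against 90.2 and was listed at 0 in both HY libraries.

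The direction of the medians depended on the scale for lists near 0. Scaled to the sum of the listed models, the median of all genes moved to 0.25, with 439 genes at least 2-fold higher and 174 lower, 71.6% of them higher against 52.9%. On that scale the V-ATPase median was -1.12, that of complexes II to IV -0.50 and that of the proteasome -0.23, still below that of all genes. On that scale 13 of 63 list medians turned above 0 and 0 turned below 0. Among the 13 were those of the peptidase, ubiquitin, carbohydrate digestion, amino acid, antioxidant, hormone and kinase-name lists.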

How the data were processed

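Midgut RNA was extracted with Trizol and sequenced on libraries made by standard Illumina protocols, per the labels' protocols. Aligner, counting tool and genome build are not given in the sources used here. The deposited columns hold normalized values named TPM, per the file headers, beside each model's best protein hit. The deposited values behave as RPM: within 0.0051 RPM 100% of them were whole reads at the totals given, against at most 46.5% at other totals near these. The lowest value was taken as 2 reads, and only totals near the one this gives were searched. On that footing a gene listed at 0 may stand for 0 or 1 read. Product names are those of similar proteins, and symbols came from a RefSeq table of assembly ASM3026992v2, which matched 475 of the 5558 models. No sequence or coordinate was used.

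From the deposited RPM, log2 of the value plus 1 was compared between libraries. With 1 library per group no test was made, and intervals are exact (Clopper-Pearson) 95% intervals of read ratios, which cover counting error only; a count of 0 was given a floor of 3 reads. Genes were named as the 15 highest and 15 lowest ratios at 3 RPM or more, the 15 most abundant, and up to 6 members of each of 65 name-based lists with the greatest change plus its most abundant. For 15 lists stray word matches were removed after names and values were seen. The members and lists were chosen with earlier results of these data known. Calculations were tested on simulated data. The tools were Python 3.11.15 with scipy 1.17.1, pandas 2.3.3, numpy 2.4.6 and, for figures, matplotlib 3.10.9.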

Additional observations from a re-analysis of the deposited data

Results flagged for a closer look

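Among 141 genes named, 21 were at least 2-fold one way after heat in 932 and at least 2-fold the other way in HY, with counting intervals on opposite sides of 0. This difference was not tested, since each group held 1 library. Many of the 141 were named for their large 932 ratios, so 21 of 141 is not a rate over all genes. The values below are the 932 log2 ratio minus that of HY. Lower in 932 and higher in HY were BGIBMGA007733 at -9.67, BGRP4 at -8.34, Gal at -7.57, MG7 at -5.79, the triacylglycerol lipase at -5.35, Hel at -5.03, futsch at -4.61, BGIBMGA003322 at -2.78 and alkaline trypsin A at -2.34. The peritrophic matrix genes IIM1, peritrophin 1 and chitin synthase B were in this class too, at -4.83, -3.96 and -2.69, as was the fatty acid binding protein BGIBMGA012890, at -4.40.

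Higher in 932 and lower in HY were Lp-c6 at 6.91, the chitin binding protein BGIBMGA009067 at 6.19, BGIBMGA004115 at 5.21, Sp2 at 4.91, the Jhdk model BGIBMGA008813 at 3.59, Ldh at 2.87, the P450 model BGIBMGA005266 at 2.78 and PGRP-S1 at 2.22. The Jhdk model BGIBMGA008814, which held nearly all Jhdk reads, had log2 ratios of 0.03 in 932 and -0.48 in HY, and the P450 model BGIBMGA001276, of the same product name, had -0.09 and 0.54. The values of Lp-c6 and BGIBMGA008813 rest on the added 1, because each was listed at 0 in 932 control and in HY heat. Lp-c6 and Sp2 are fat body storage proteins, and their reads in 932 heat numbered 61 and 50.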

How the results depend on the processing

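The counts of genes at least 2-fold higher and lower (300 and 267) became 498 and 431 with 0.1 added in place of 1, 112 and 118 under a floor of 10 RPM, 36 and 54 with 10 added, 27 and 26 under a 4-fold rule, and 107 and 95 where the whole counting interval lay beyond 2-fold. Scaled to the sum of the listed models, 439 were higher and 174 lower. Without a floor, centred on the median gene, with totals that leave out the 20 most abundant genes, or with median-of-ratios size factors, each count stayed within 1.5 times its main value. With 10 added the higher share was 40%, against 52.9%. Ratios of read numbers with 0.5 read added and a floor of 10 reads gave 378 and 349, of which 255 and 238 were shared with the main calls. This setting, the size factors and lists by their first name patterns, before stray word matches were removed, were chosen after seeing the data.

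Over 63 lists with a median, 467 alternative medians differed by less than 0.25 and 94 by more. Among medians of at least 0.5 in size 1 changed sign: the sugar transporter median was 0.01 without a floor and -0.50 with it. The cause was not tested. With medians of any size, scaled to the sum of the listed models, 13 of the 63 turned above 0 and 0 below. No paired analysis was possible because each group held 1 library, and for the same reason no library could be left out. Depth limits the low genes: 1 read was worth 0.163 to 0.172 RPM.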

Other observations

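Lipid handling genes of 932 were split in direction. Of 25 fatty acid, acyl-CoA and sterol genes 2 were at least 2-fold higher and 3 lower, and the list median was -0.08. These counts were near the shares of 11.1% and 9.86% over all genes. The gene BGIBMGA012890 for a fatty acid binding protein, a carrier within the cell, had 7.55 RPM in 932 heat and 21 in 932 control, and 51.1 against 5.35 RPM in the HY pair. Fatp (BGIBMGA006185), a fatty acid transport protein, had 19 reads in 932 heat and 3 in 932 control. Another fatty acid binding protein model (BGIBMGA012944) had 1251 RPM in 932 heat and 987.9 in 932 control. The abundant acyl-CoA binding protein ACBP-like (BGIBMGA002905) stood at 3394 RPM in 932 heat and 3580 in 932 control, a ratio of -0.08. The summed level of the list was 4950 RPM in 932 heat and 4947 in 932 control.

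Mitochondrial ribosomal proteins, which translate the genome of mitochondria, had 17 of 25 ratios above 0 and a median of 0.42. At least 2-fold higher was 1 of them and lower 1, below the shares of 11.1% and 9.86% over all genes. Of 7 sugar transporters 1 was higher and 2 lower, against the same shares of 11.1% and 9.86%. The lower BGIBMGA004511 read 29.5 RPM in 932 heat and 64 in 932 control. Of 4 amino acid and peptide transporters 0 passed 2-fold, with a median of -0.63.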
